A study of Mus musculus with 6 samples.

Results

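The genes examined were Cyp2b9, Cyp2b10, Elobl and Ctxn3, 4 of 23785 genes with a named probe, measured by 5 of the 56605 probes of an Agilent mouse array. They were chosen by their signal on these 6 arrays, which was near background in WT kidneys and raised in Pck1-CKO kidneys, less so on the third Pck1-CKO array. Their difference between genotypes is therefore described here without a test. Total RNA of whole kidneys was hybridised in 6 samples, 1 array each, 3 labelled Pck1-CKO and 3 labelled WT. The Pck1-CKO mice were Pck1 flox/flox and carried a γGT-Cre transgene (tg/+), which directs the deletion to the renal proximal tubule. The WT mice were littermates of the same age and sex, and all mice were C57BL/6J, killed at 32 weeks. The breeding gave controls of 3 genotypes, flox/+ with γGT-Cre, flox/+ without it and flox/flox without it. The labels do not say which of these a WT array held, nor whether different arrays are different mice. The p-values therefore cover the spread between these samples and may miss that between animals.

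Cytochrome P450 enzymes of the Cyp2b subfamily are membrane-bound monooxygenases that oxidise steroids, drugs and other foreign compounds, with electrons from P450 oxidoreductase. In mouse liver, Cyp2b10 is the classical gene induced by phenobarbital through the nuclear receptor CAR (Nr1i3), which shares targets with PXR (Nr1i2), and Cyp2b9 is a gene with higher expression in females. Elobl is named for its likeness to elongin B, a ubiquitin-like adaptor of E3 ubiquitin ligases. Ctxn3 encodes a cortexin, a small membrane protein of a family known from brain, and human CTXN3 is expressed in kidney and brain.

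The arrays differed little in quality. Between 37118 and 38708 of 56605 probes (65.6% to 68.4%) lay well above background by the scanner's own call, 46 to 94 spots carried an outlier flag, and 0 spots were saturated. The targeted gene Pck1 read no lower in the libraries labelled Pck1-CKO, at a normalised log2 signal of 6.44, 6.60 and 6.90 against 6.29, 6.32 and 5.63 in WT (limma adjusted p = 0.152). No source used here places its only probe inside or outside the deletion, so this signal does not check the labels, and every direction below is that of the arrays so labelled. Pck1-CKO arrays lay in slide row 2 and WT arrays in row 1, and the effect of genotype and that of the row cannot be told apart. By limma, at an adjusted p under 0.05, 743 of 17136 tested genes (4.34%) were higher in Pck1-CKO and 634 (3.70%) lower, 8.04% in either direction, with a median absolute log2 change of 0.39 among them. The 10 proximal tubule markers tested, which include Lrp2, Slc5a2 and Slc34a1, included 0 that passed limma's test in either direction (unadjusted, 2 higher and 1 lower).

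Cyp2b9 (probe A_51_P467076) had a processed signal of 140.0, 149.2 and 22.7 in Pck1-CKO arrays 1 to 3, against 5.17, 2.03 and 2.37 in WT arrays 1 to 3. The processed signal is the scanner software's background-subtracted, linear brightness in arbitrary units. All 3 Pck1-CKO arrays were well above background and 0 of 3 WT arrays were. Pck1-CKO 1 and 2 were alike, Pck1-CKO 3 was far lower, and the groups did not overlap. The scanner's own error estimate was 14.2, 15.1 and 2.997 on the Pck1-CKO arrays, against 2.55, 2.04 and 2.12 on the WT arrays, so the WT signals were about as large as their errors on WT 2 and WT 3. After each array was scaled to its 75th percentile, the log2 signal averaged -2.88 ± 1.56 in Pck1-CKO and -7.58 ± 0.78 in WT (SD, n = 3 each). Since no WT array was well above background, only a bound on the fold holds. Cyp2b9 was at least 7.02-fold higher in Pck1-CKO, and at least 13.1-fold higher without Pck1-CKO 3. The bound sets the Pck1-CKO mean against, on each WT array, the higher of the probe's own signal and the lowest signal that was well above background. It leaves out the scanner's error, so every bound given here is approximate.

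Cyp2b10 was read by 2 probes. The brighter one (A_55_P2044653) gave 316.8, 373.4 and 63.4 in Pck1-CKO arrays 1 to 3, against 5.92, 2.45 and 11.3 in WT arrays 1 to 3. The order of the Pck1-CKO arrays was that seen for Cyp2b9, while the highest WT value here was on WT 3, the only WT array well above background for this probe. The normalised log2 signal averaged -1.55 ± 1.43 in Pck1-CKO and -6.67 ± 1.08 in WT (SD, n = 3 each), a log2 difference of 5.12, or 34.7-fold. That size is uncertain, since it is taken against WT signals of which 1 of 3 was well above background. The dimmer probe (A_52_P472486) gave 20.8, 28.4 and 5.78 in Pck1-CKO, against 2.72, 2.17 and 2.27 in WT. It was well above background on Pck1-CKO 1 and 2 and on no other array, too few to enter the test. Its groups did not overlap either, but its bound was only 1.36-fold, and 2.21-fold without Pck1-CKO 3. Both probes had the same order of Pck1-CKO arrays, and the WT signals were too dim to compare the sizes of their differences.

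Elobl (A_66_P100736) had a processed signal of 477.3, 492.7 and 104.7 in Pck1-CKO, against 12.4, 9.05 and 2.16 in WT. None of the WT arrays was well above background, and WT 3 was the lowest of them. On the normalised log2 scale Elobl averaged -0.98 ± 1.30 in Pck1-CKO and -6.48 ± 1.41 in WT (SD, n = 3 each). By the approximate bound described for Cyp2b9, Elobl was at least 26.0-fold higher in Pck1-CKO, and at least 43.7-fold higher without Pck1-CKO 3. On WT 1 its signal of 12.44 exceeded the lowest one well above background there, 12.19, without being so itself. That lowest signal is therefore no strict limit of detection. The fitted log2 difference of 5.50, which is no bound, ranked 1st among all tested genes.

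Ctxn3 (A_51_P115953) was the member with a measurable level in every kidney. Its processed signal was 316.6, 375.3 and 100.9 in Pck1-CKO, against 24.3, 26.0 and 16.3 in WT, and all 6 arrays were well above background. The normalised log2 signal averaged -1.33 ± 1.05 in Pck1-CKO and -4.68 ± 0.42 in WT (SD, n = 3 each), a log2 difference of 3.35, or 10.2-fold. Its lowest Pck1-CKO array lay 1.90 above its highest WT array, a gap larger than the whole WT range of 0.73. For Elobl the gap was 2.93 and the WT range 2.66, for Cyp2b10 2.49 and 2.14, and for Cyp2b9 1.995 and 1.43. In bulk kidney RNA, more cells of a type that expresses these genes and more RNA per cell cannot be told apart.

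**Figure D1:**
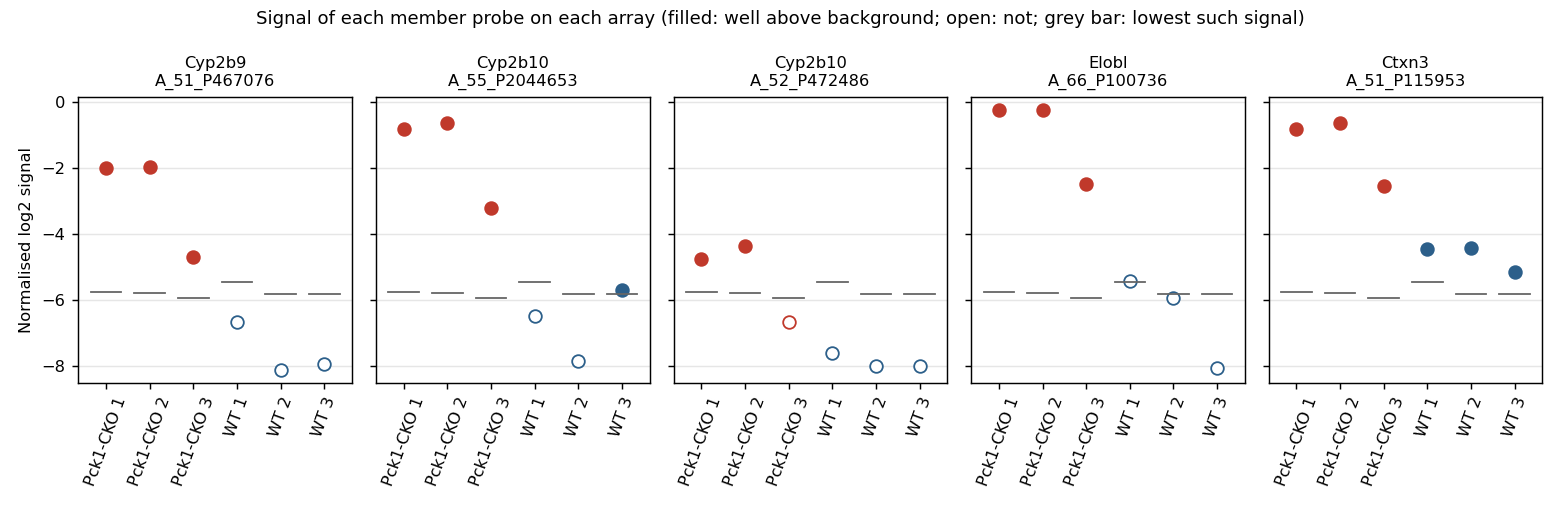
Normalised log2 signal (log2 processed signal minus the array's 75th percentile) of the 5 member probes on the 3 Pck1-CKO arrays (red) and the 3 WT arrays (blue). Filled points were well above background, open points were not, and grey bars mark the lowest signal well above background on each array. In every panel Pck1-CKO 1 and 2 lie together, Pck1-CKO 3 lies below them, and the WT arrays lie lowest.

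The 4 members ranked 1st (Elobl), 3rd (Cyp2b10), 4th (Cyp2b9) and 19th (Ctxn3) by log2 difference among 17136 tested genes, and 19 genes (0.111%) reached the value of Ctxn3. All 4 separated the groups, as 21.9% of tested genes did in the same direction and 38.3% in either. Both facts follow from how the members were chosen. Of the 4, Cyp2b9, Cyp2b10 and Elobl passed the filter on dim probes only because of their Pck1-CKO arrays, and Ctxn3 would have passed on its WT arrays alone. With another background correction (normexp, offset 50), which shrinks dim signals, the log2 differences were 1.31 for Cyp2b9, 2.01 for Cyp2b10, 2.48 for Elobl and 1.83 for Ctxn3. Under it Cyp2b9 had -1.51, -1.53 and -2.89 in Pck1-CKO, against -3.18, -3.39 and -3.28 in WT, so Pck1-CKO 3 came close to the WT arrays. The dimmer Cyp2b10 probe then had -2.75, -2.72 and -3.12 in Pck1-CKO, against -3.09, -3.16 and -3.32 in WT, and the groups overlapped.

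The fall on the third Pck1-CKO array was of similar size in all members. On the log2 scale, Pck1-CKO 1 minus Pck1-CKO 2 ran from -0.19 (Ctxn3) to 0.0047 (Elobl) at the tested probes of the 4 genes, and was -0.40 at the dimmer Cyp2b10 probe. Pck1-CKO 3 lay below the mean of these arrays by 6.52-fold for Cyp2b9, 5.56-fold for Cyp2b10 and 4.75-fold for Elobl. It lay 3.503-fold below for Ctxn3 and 4.32-fold below at the dimmer Cyp2b10 probe. Only 14 of 17136 genes (0.0817%) fell on this array by at least as much as Ctxn3, which deviated by -1.81 on the log2 scale, a count in which the members' place is fixed by how they were chosen. Of the other 10, Saa2 (an acute-phase protein), Mup20 (a major urinary protein) and Ccl28 (a chemokine) also had all Pck1-CKO arrays above all WT arrays, and none of these 3 passed limma's test.

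Among those 3, Ccl28 had the arrays in the members' order. Its normalised log2 signal was 1.03, 0.99 and -0.97 in Pck1-CKO, against -1.83, -1.72 and -1.14 in WT (limma adjusted p = 0.0930). In Saa2 and Mup20 the pattern differed. Saa2 had 2.25, -3.92 and -4.24 in Pck1-CKO and Mup20 had -0.36, -4.84 and -5.14, so that Pck1-CKO 1 alone was high. WT arrays had -6.08, -7.10 and -6.53 for Saa2 and -7.48, -7.86 and -7.63 for Mup20, none of them well above background. Neurog2, a transcription factor of neuronal precursors, came near the members with -2.15, -1.99 and -4.06 in Pck1-CKO, against -5.20, -5.27 and -3.96 in WT, but Pck1-CKO 3 lay within the WT range (adjusted p = 0.101).

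**Figure D2:**
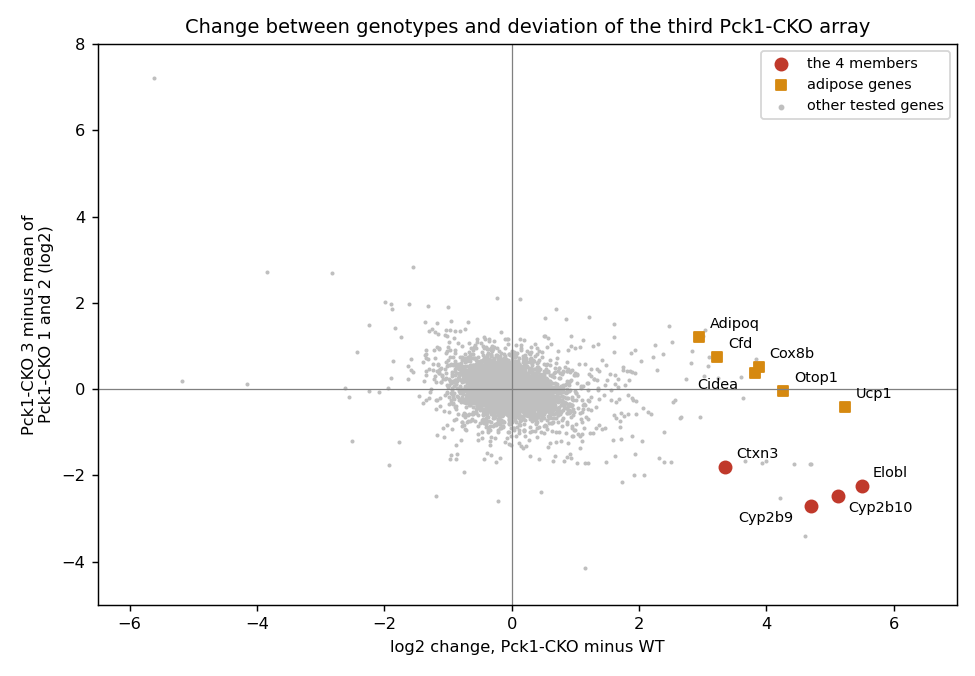
Log2 difference between Pck1-CKO and WT (horizontal) against the deviation of Pck1-CKO 3 from the mean of Pck1-CKO 1 and 2 (vertical, log2) for all 17136 tested genes. The 4 members (red circles) lie at the lower right, between -1.81 and -2.70 on the vertical axis. The 6 adipose genes with large differences (orange squares), picked from the brown fat and adipocyte markers, lie between -0.41 and 1.21. The markers Elovl3 and Lipe, which were not picked, had deviations of -0.67 and -0.12.

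The members were also compared with each other over the 6 arrays. Pearson's r between pairs was 0.895 to 0.986, values that rest on the gap between the genotypes used to choose the genes. On deviations from the group means, r was 0.893 for Elobl with Ctxn3 and 0.892 for Cyp2b9 with Ctxn3. It was lowest, at 0.252, for Cyp2b10 with Elobl. These deviations include the fall within the Pck1-CKO arrays, by which the genes were also chosen. The choice therefore favours a high r here too, and these values cannot show independently that the members vary together. The WT deviations of Cyp2b9, Cyp2b10 and Elobl rest mostly on signals not well above background, so the order of these values is uncertain. The points share the arrays and their scaling.

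The genes most like the members were then sought among 148 tested genes with a log2 difference of at least 1, by r with the mean centred profile of the 4. Apoh, which encodes the plasma protein beta-2-glycoprotein I, was highest at r = 0.991. Its normalised log2 signal was 1.33, 1.30 and 0.23 in Pck1-CKO, against -0.93, -1.02 and -0.88 in WT, a log2 change of 1.90 ± 0.30 (SE, n = 3 each, limma adjusted p = 0.0312). Pck1-CKO 1 and 2 were again alike and Pck1-CKO 3 lay between them and the WT arrays. The next were Ppp1r3g, a glycogen-targeting subunit of protein phosphatase 1, which was well above background on the Pck1-CKO arrays alone, Cpe, a carboxypeptidase that trims peptide hormones, and Rgs14, a regulator of G-protein signalling. Myom3, Zfp458, Cyp4a12a and Igf2bp1 completed the 8. All 8 passed limma's test, which the choice by size and by likeness to a profile split by genotype favours. Their log2 changes were from 1.06 (Igf2bp1) to 2.39 (Rgs14), with Ppp1r3g left out because its WT signals were all too dim. Cyp4a12a passed under every alternative run, while each of the other 7 lost its call when Pck1-CKO 1, Pck1-CKO 2 or WT 2 was left out.

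In these 8 genes Pck1-CKO 3 deviated from Pck1-CKO 1 and 2 by less than in any member. The choice of the members by their rise and by this fall favours that order. The log2 differences of the 8 genes were also smaller than those of the members, so the deviations are not like for like. The deviation was -1.08 for Apoh and -1.004 for Rgs14, and -0.25 for Cyp4a12a, against -1.81 to -2.70 in the members. Of 82 genes with a log2 difference of -1 or below, Pianp, Rnase4, Mbl2 and Prlr had the lowest r, from -0.996 to -0.985. Prlr, the prolactin receptor, had -0.69, -0.92 and -0.11 in Pck1-CKO, against 1.06, 1.03 and 0.94 in WT (adjusted p = 0.0236). That Pck1-CKO 3 lay nearest to WT in these genes follows from their choice by r, and each of the 4 calls was lost when Pck1-CKO 1, Pck1-CKO 2, WT 1 or WT 2 was left out.

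**Figure D3:**
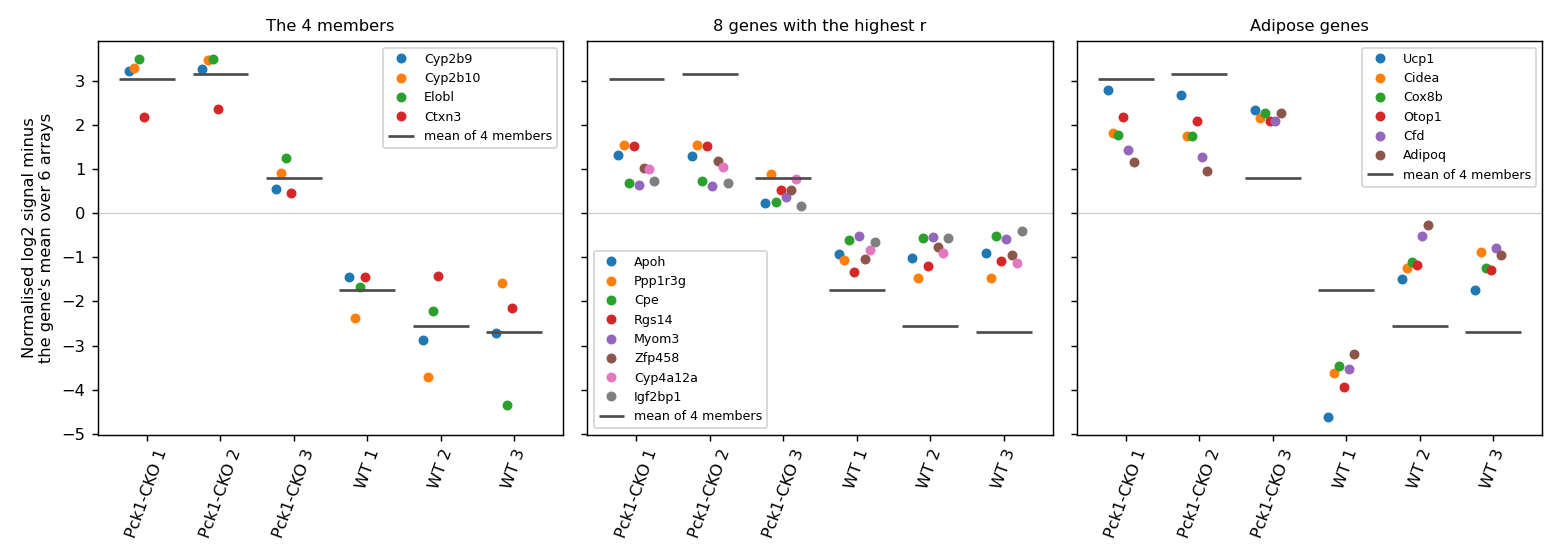
Normalised log2 signal minus each gene's mean over the 6 arrays, for the 4 members (left), the 8 genes with the highest r (middle) and 6 adipose genes (right), with bars for the mean of the members. Members and the 8 genes have Pck1-CKO 3 nearer to WT than Pck1-CKO 1 and 2. The 6 adipose genes, picked from the marker lists, have WT 1 far below WT 2 and 3. Of these 6 only Ucp1 and Otop1 have Pck1-CKO 3 below the mean of Pck1-CKO 1 and 2 (deviations of -0.41 and -0.04). Among markers not shown, Elovl3 and Lipe also had it below (-0.67 and -0.12).

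The Cyp2b subfamily was examined next, since related genes can share probe signal. The other 3 genes with a probe, Cyp2b13, Cyp2b19 and Cyp2b23, were not well above background on any of the 6 arrays. Cyp2b13 had a processed signal of 2.50, 2.53 and 3.54 in Pck1-CKO, against 4.69, 5.80 and 3.92 in WT. By their brightest probes, Cyp2b19 and Cyp2b23 had 2.05 to 8.12 in Pck1-CKO, against 2.46 to 9.96 in WT, with no order by genotype. The files hold no probe sequences, so how far the Cyp2b9 and Cyp2b10 probes also read transcripts of each other or of Cyp2b13 was not tested, and each gene's value is uncertain to that degree.

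RefSeq places Cyp2b13 between Cyp2b10 and Cyp2b9 on chromosome 7, and the 3 promoters are shown because the genes at the ends of that stretch were high in Pck1-CKO and the one between them was not. The windows run from 250 bases before to 50 after the annotated start, 5′ to 3′ on the plus strand, from RefSeq on GRCm38.p6. Cyp2b9 is at chr7:26173159-26173458, Cyp2b13 at chr7:26061245-26061544 and Cyp2b10 at chr7:25897408-25897707. Capitals mark bases that differ between Cyp2b9 and Cyp2b13 in the first 2 lines, and bases of Cyp2b10 that differ from Cyp2b9, or have no partner in it, in the third.
Cyp2b9: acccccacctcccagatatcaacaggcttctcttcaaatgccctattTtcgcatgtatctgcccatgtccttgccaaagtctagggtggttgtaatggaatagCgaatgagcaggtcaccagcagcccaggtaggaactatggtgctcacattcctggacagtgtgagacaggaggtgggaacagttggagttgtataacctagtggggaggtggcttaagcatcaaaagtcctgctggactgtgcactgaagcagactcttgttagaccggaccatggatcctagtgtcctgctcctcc
Cyp2b13: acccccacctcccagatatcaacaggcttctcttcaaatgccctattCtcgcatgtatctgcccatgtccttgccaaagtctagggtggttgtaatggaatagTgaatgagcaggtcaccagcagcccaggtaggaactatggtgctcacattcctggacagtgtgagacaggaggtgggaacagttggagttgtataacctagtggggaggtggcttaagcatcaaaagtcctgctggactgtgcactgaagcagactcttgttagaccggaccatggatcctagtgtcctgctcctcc
Cyp2b10: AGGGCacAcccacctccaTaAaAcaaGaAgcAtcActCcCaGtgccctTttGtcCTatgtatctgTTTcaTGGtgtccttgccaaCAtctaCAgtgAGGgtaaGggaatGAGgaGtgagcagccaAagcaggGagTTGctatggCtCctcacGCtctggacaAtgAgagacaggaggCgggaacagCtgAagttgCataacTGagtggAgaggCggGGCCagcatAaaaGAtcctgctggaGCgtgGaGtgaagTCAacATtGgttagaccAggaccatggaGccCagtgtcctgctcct
Cyp2b9 and Cyp2b13 were identical at 298 of 300 bases (99.3%). From Cyp2b9 to Cyp2b13 the differences were T48C and C104T, counted from the 5′ end of the window. Cyp2b9 and Cyp2b10 were identical at 223 of 289 aligned bases (77.2%).

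The Elobl window is at chr11:88966882-88967181 on the minus strand, in the same build. Capitals mark AGGTCA, a core site that nuclear receptors such as CAR recognise.
Elobl: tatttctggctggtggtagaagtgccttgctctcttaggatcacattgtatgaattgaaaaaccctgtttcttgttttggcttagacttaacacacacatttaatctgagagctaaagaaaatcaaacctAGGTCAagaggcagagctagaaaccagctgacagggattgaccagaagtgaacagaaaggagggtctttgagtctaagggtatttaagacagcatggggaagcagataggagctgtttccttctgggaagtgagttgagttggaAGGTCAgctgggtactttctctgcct
AGGTCA was found in Elobl at 120 bases before and 24 bases after the start, and in Cyp2b9 at 138 bases before it. The window of Cyp2b13, a gene not well above background on any array, holds AGGTCA at the same place as that of Cyp2b9. Among all 32851 promoter windows 16.3% hold a match on either strand, and Cyp2b10 held 0. Pairs of AGGTCA in the same direction with 1 or 4 bases between them, held by 0.0396% and 0.0152% of windows, had 0 matches in Cyp2b9, Cyp2b10 and Elobl. TATAAA (13.6% of windows) and GTTAAT (7.10%) had 0 matches in these 3 windows. CCAAT (37.4%) was found once, in Cyp2b10 on the minus strand. TTC and GAA with 3 bases between them (8.30%) was found once, in Elobl. A window of 300 bases does not reach distant enhancers, and a match or its absence is a description of the letters alone.

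None of the tested genes around the members passed the test. Of 31 genes with a probe that lie within 5 places on either side, 18 were bright enough to test, and 0 were higher and 0 lower by limma (unadjusted, 1 higher and 1 lower). Their median log2 change was 0.04 and the range -0.72 to 0.52, beside a median of 0.01 over all genes. On the Cyp2b10 side, Cyp2s1, a P450 gene of another subfamily, had a log2 change of -0.15 ± 0.07 (SE, n = 3 each, adjusted p = 0.222). Cyp2a4, a steroid hydroxylase gene near Cyp2b9, had 0.23 ± 0.17 (adjusted p = 0.410). Beside Elobl, Scpep1, a serine carboxypeptidase gene, had 0.11 ± 0.07 (adjusted p = 0.333), and 2210409E12Rik had 0.25 ± 0.18 (adjusted p = 0.373). Beside Ctxn3, Gm19500 and 1700066O22Rik were too dim to test. Beside Cyp2b9, Vmn1r184 was also too dim.

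**Figure D4:**
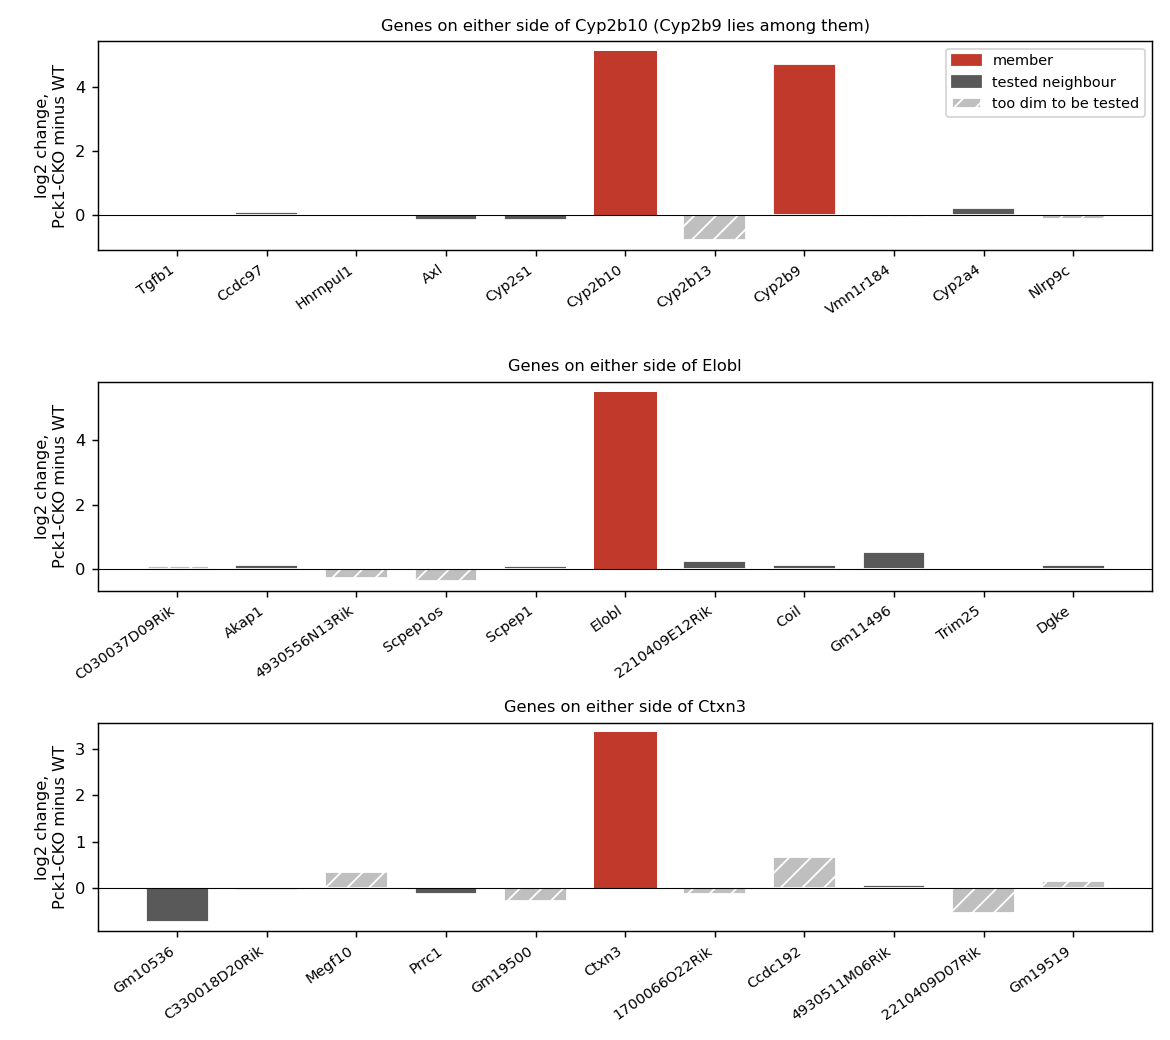
Log2 difference between Pck1-CKO and WT for up to 5 genes with a probe on either side of Cyp2b10 (a stretch that holds Cyp2b9), Elobl and Ctxn3, in RefSeq order. Red bars are members, dark bars tested neighbours and hatched bars genes too dim to test. The members stand between 3.35 and 5.50, and tested neighbours between -0.72 and 0.52.

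The partners and regulators of the P450 genes were followed in lists that leave the 4 members out. Among 5 genes that feed electrons to P450 enzymes, 0 passed limma's test in either direction (unadjusted, 1 higher and 0 lower). Por, the P450 oxidoreductase, had a log2 change of 0.08 (adjusted p = 0.489), and Cyb5a, Cyb5b, Cyb5r3 and Cyb5r1 (cytochrome b5 and its reductases) had -0.02, -0.06, 0.04 and 0.20. For 13 genes of the CAR and PXR machinery, the groups did not overlap in 9, beside 38.3% of all tested genes. By limma 1 was higher and 0 lower (unadjusted, 4 higher and 2 lower). It was Hsp90ab1, an HSP90 chaperone of the kind that holds CAR in the cytoplasm, with a log2 change of 0.22 ± 0.04 (SE, n = 3 each, adjusted p = 0.0435), and it did not pass without any one of 5 arrays, all but Pck1-CKO 3. The receptors were not among the calls. Nr1i3 (CAR) had -2.89, -3.05 and -3.32 in Pck1-CKO, against -2.51, -2.87 and -2.95 in WT (adjusted p = 0.240). Nr1i2 (PXR) had -1.48, -1.49 and -1.34 in Pck1-CKO, against -0.94, -1.11 and -0.68 in WT (adjusted p = 0.0531).

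Next came other genes that CAR and PXR are known to induce in liver, as they do Cyp2b10. Of 22 listed, 16 could be tested, and 0 were higher and 0 lower by limma (unadjusted, 0 higher and 1 lower), with log2 changes from -0.43 to 0.23 and a median of -0.06, beside 0.01 over all genes. The lowest p was that of Gadd45b, a stress-response gene, at -0.43 ± 0.11 (adjusted p = 0.0710). The xenobiotic P450 gene Cyp3a11 had -4.82, -5.11 and -5.68 in Pck1-CKO, against -4.82, -5.73 and -4.91 in WT, and the groups overlapped.

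Since Cyp2b9 is a sex-biased gene in liver, genes of sex-biased expression were read. Ddx3y, Kdm5d, Eif2s3y and Uty, all on the Y chromosome, were well above background on all 6 arrays, and Xist, transcribed from the inactive X of females, on none. Of the 4 Y-linked genes 0 passed limma's test in either direction (unadjusted, 1 higher and 1 lower).

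In the kidney lists, 4 of 11 male-biased genes were higher and 0 lower, with a list median of 0.37 beside 0.01 over all genes. Cyp4a12a, a fatty acid hydroxylase, had 4.86, 4.89 and 4.62 in Pck1-CKO, against 3.01, 2.93 and 2.72 in WT (adjusted p = 0.00425). Odc1, the first enzyme of polyamine synthesis, had a log2 change of 0.64, Cyp2j13, another P450 gene, 0.58, and Slco1a1, an organic anion transporter, 0.52, a call lost with quantile normalization. Of 9 female-biased kidney genes, 1 was higher and 3 lower, with a median of -0.24. The amino acid transporter gene Slc7a12 changed by -2.08, Prlr by -1.59 and the organic anion transporter gene Slc22a19 by -0.44, and Rnf24, which was higher, by 0.27. These counts rest on single arrays. The male-biased count was 1 without WT 1, WT 2, Pck1-CKO 1 or Pck1-CKO 2, 2 without WT 3 and 6 without Pck1-CKO 3, and the count of lower female-biased genes was 0 without any of the 4 arrays first named. The female-biased kidney gene Cyp4a14, which had -2.18, -2.01 and -3.86 in Pck1-CKO, against -0.89, -0.98 and -0.39 in WT, did not pass (adjusted p = 0.0732).

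Genes related to Elobl and Ctxn3 gave 1 call in all. Of 11 tested genes for elongin B, its partners and the SOCS-box proteins that bind it, 1 was higher and 0 lower. Elob itself, which encodes elongin B, had 6.07, 6.01 and 5.95 in Pck1-CKO, against 6.05, 5.92 and 6.07 in WT, a log2 difference of -0.0020. Cul2, a cullin scaffold of elongin ligases, changed by 0.21 (adjusted p = 0.0392), a call lost without any 1 of the 6 arrays and with quantile normalization. Of the other cortexins, Ctxn1 had -3.44, -3.49 and -3.63 in Pck1-CKO, against -3.06, -3.17 and -3.31 in WT (adjusted p = 0.0629), and Ctxn2 had a log2 difference of 0.24 (adjusted p = 0.650). The signals of Ctxn1 lay lower in Pck1-CKO than in WT, opposite to Ctxn3, and neither gene passed.

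**Figure D5:**
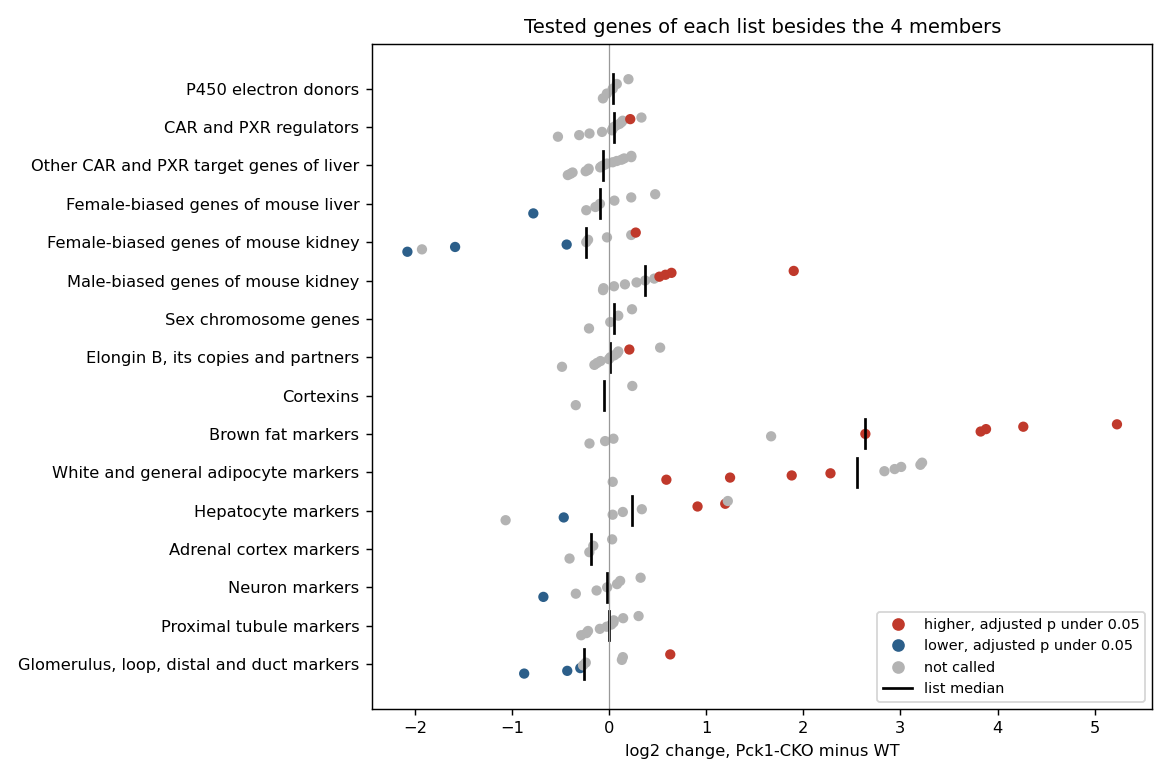
Log2 change between Pck1-CKO and WT of each tested gene in 16 lists, with the 4 members left out. Red points were higher and blue points lower at a limma adjusted p under 0.05, and black bars are list medians. Electron donors, CAR and PXR regulators and targets, elongin genes and cortexins lie between -0.53 and 0.53. Brown fat markers reach from -0.20 to 5.23 and adipocyte markers from 0.04 to 3.22.

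Markers of other cell types were read in lists, which moved to different degrees. Of 9 brown fat markers, 5 were higher and 0 lower (Ucp1, Cidea, Cox8b, Otop1 and Elovl3), and unadjusted 6 were higher and 1 lower. Of 10 white and general adipocyte markers 4 were higher and 0 lower (Fabp4, Lipe, Car3 and Plin4), and unadjusted 9 were higher and 0 lower. The list medians were 2.64 and 2.56, and 4.34% of all tested genes were higher. All 10 adipocyte markers had a positive change. The largest, Cfd at 3.22 and Plin1 at 3.21, were not called (limma adjusted p = 0.0681 and 0.0549). Elovl3 was well above background on 3 Pck1-CKO and 0 WT arrays, so it entered the test only through the group where it was high. Among the brown fat markers not called, Dio2 changed by 1.67, Cox7a1 by 0.04 and Prdm16 by -0.04. Ppargc1a changed by -0.20, with all Pck1-CKO arrays below all WT arrays. The log2 summed signal of the adipocyte list was 6.66, 6.56 and 7.24 in Pck1-CKO, against 4.11, 5.21 and 5.09 in WT. That of the brown fat list was 5.90, 5.85 and 5.98 in Pck1-CKO, against 4.84, 4.96 and 4.92 in WT. Such sums add linear signals, so the brightest genes weigh most. Cox7a1, which was not called, was the brightest brown fat marker on every array. It had 4.20, 4.21 and 4.28 in Pck1-CKO, against 4.20, 4.20 and 4.16 in WT. Both sums were highest on Pck1-CKO 3 and lowest on WT 1. Single markers differed from the sums, since Ucp1 and Elovl3 lay below the mean of Pck1-CKO 1 and 2 on Pck1-CKO 3, with deviations of -0.41 and -0.67. Ucp1 and Cidea were well above background on all 6 arrays. The counts were 0 for both lists without WT 2, Pck1-CKO 1 or Pck1-CKO 2. Without WT 1 they were 4 and 1, and without Pck1-CKO 3 they were 2 and 1.

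Of 8 tested hepatocyte markers, 2 were higher and 1 lower. Ttr (transthyretin) changed by 1.20 and Serpina1a (an alpha-1-antitrypsin) by 0.91, and Apob by -0.47. Of the 8, 6 had a positive log2 change and 2 a negative one, with Fgb lowest at -1.07 (limma adjusted p = 0.149). The list's log2 summed signal was 6.74, 6.68 and 6.26 in Pck1-CKO, against 5.77, 5.73 and 5.95 in WT. Pck1-CKO 3 was lowest of its group, as in the members, but that sum is mostly the signal of 1 gene, Serpina1a. Serpina1a was the brightest of the markers, with 6.41, 6.37 and 5.87 in Pck1-CKO, against 5.28, 5.22 and 5.42 in WT. Alb (albumin) did not follow, with 0.24, -0.84 and -0.56 in Pck1-CKO, against -0.99, -0.77 and -0.41 in WT. Ahsg (fetuin-A) had -0.98, -7.85 and -5.44 in Pck1-CKO, so that Pck1-CKO 1 was far above Pck1-CKO 2, while in the members these arrays were close, as given above. In WT Ahsg had -7.47, -5.03 and -5.44. Its signals on Pck1-CKO 2 and WT 1 were not well above background, so their values are uncertain. The hepatocyte count of higher genes was 0 without WT 1, WT 2, Pck1-CKO 1 or Pck1-CKO 2, and 1 without WT 3.

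Markers of the adrenal cortex included 0 higher and 0 lower of 4 tested by limma (unadjusted, 0 higher and 1 lower), with a log2 summed signal of -0.76, -0.81 and -0.74 in Pck1-CKO, against -0.65, -0.66 and -0.58 in WT. Of 7 neuron markers 0 were higher and 1 lower, Syn1 at -0.68, and the log2 summed signal was 4.24, 4.08 and 3.98 in Pck1-CKO, against 4.48, 4.31 and 4.51 in WT. The part of fat, liver or other cell types in the members' difference was not tested.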

How the data were processed

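Total RNA of 6 mouse kidney samples was measured on Agilent arrays in 1 colour (Cy3), per the labels. The deposited scanner files hold linear intensity values from Agilent Feature Extraction 10.7.1.1, per the submitters' processing notes and the file headers, and the processed signal is already background-subtracted and detrended. The series matrix, also deposited, is a linear ratio, found here to equal the processed signal divided by 1 factor per array, with column medians of 0.100, 0.098 and 0.099 for Pck1-CKO and 0.105, 0.104 and 0.103 for WT. No source used here names the software of that scaling.

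Processed signals were turned into log2 values, flagged outlier spots were left out, and each array's 75th percentile (529 to 583) was subtracted. Probes were named by RefSeq accession through a table of GRCm38.p6, which gave 34675 probes 1 symbol. The file headers name another build, so coordinates are printed only for RefSeq's promoter windows, found for Cyp2b9, Cyp2b10 and Elobl. Probes had to be well above background on 3 or more of 6 arrays, and the brightest one stood for a gene, so 25517 probes gave 17136 genes. The test was limma's (version 3.58.1, lmFit and eBayes, under R 4.3.3), 2-sided, with no covariates and Benjamini-Hochberg adjustment. The procedure was tested on simulated data. The number of arrays limits the precision.

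The members and the 17 lists were chosen with earlier results of these data known. Results for 2 of the lists are not reported here. Genes named were the members, all genes of 4 short lists (Cyp2b, cortexins, electron donors, sex chromosomes), up to 4 genes past the threshold in each other list or else the 1 with the lowest p, the nearest neighbours, and the 8 genes most and 4 genes least like the members. Other genes, such as those with a fall on Pck1-CKO 3, were named after their values were seen. Alternatives covered scaling, background correction, filter, probe choice, variance model, array weights, flags, a replicate block and left-out arrays. Normexp used the median signals. Slide and scan were shared by all arrays.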

Additional observations from a re-analysis of the deposited data

How the results depend on the processing

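The log2 differences of the 4 members kept their sign under every alternative run. Their choice for a rise in Pck1-CKO favours this. Since their groups did not overlap at the tested probes, leaving out 1 array could not have reversed a sign. Leaving out 1 array gave 4.24 to 5.60 for Cyp2b9, 4.54 to 5.94 for Cyp2b10, 4.70 to 6.25 for Elobl and 3.003 to 3.96 for Ctxn3. Normexp background correction gave 1.31, 2.01, 2.48 and 1.83 in the same order of genes. The dimmer Cyp2b10 probe gave 2.62 under the main processing and 0.33 under normexp. Counts of calls moved far more. For all genes (743 higher and 634 lower) they were 61 and 81 with no filter on dim probes, 1689 and 1133 with a variance trend, 3285 and 2614 with array weights, and 16 to 779 and 9 to 806 with 1 array left out. Median scaling gave 2434 higher genes and a share of 81.3% higher among calls, where the 75th percentile gave 54.0%. For the lists (19 higher and 9 lower) the counts were 2 and 4 with no filter, 31 and 16 with a trend, 39 and 23 with array weights, and 1 to 16 and 0 to 11 with 1 array left out. For the neighbours (0 and 0) they were 2 and 2 with array weights, 0 and 1 with a trend, and 0 to 1 higher with 1 array left out. The causes were not tested.

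The sample numbers were also slide columns. Correlations of same-numbered deviations were -0.00097, -0.11 and -0.023, and those of differently numbered ones lay between -0.076 and 0.12. These values show no pairing by number, but with so few arrays they cannot exclude it. With the number as a replicate block, 3 genes were higher and 1 lower among all genes, and 1 and 0 in the lists. Of 38 named genes past the threshold, 1 to 29 stayed past it with 1 array left out, and none reversed. For Cyp2b9 and Elobl in WT, signal at background limits any value to a bound.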

Other observations

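The zinc-finger gene Zfp874a, named after its values were seen, lay opposite to the members on both measures used for them. Its log2 difference between Pck1-CKO and WT was -5.61, and on Pck1-CKO 3 it lay 7.21 above the mean of Pck1-CKO 1 and 2, the largest upward deviation on that array among the 17136 tested genes. The difference between the groups therefore rests mainly on Pck1-CKO 1 and 2.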
